A study of Mus musculus with 12 samples.

Results

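Of the 41345 probe sets in the deposited table, 1814 (4.39%) carry 2 or more gene symbols in the array annotation, and these shared probe sets were kept as single features and grouped by the gene family their symbols name. A shared probe set may read transcripts of more than 1 of its listed genes, so its signal was given to its whole list of symbols and never to 1 gene. RNA was measured on 12 Affymetrix arrays of mouse embryonic stem cells in 4 groups of 3, all carrying MERVL::tdTomato, a red fluorescent reporter under the control of an endogenous retrovirus. The groups were the parental reporter cells, a double knockout of Dppa2 and Dppa4 in those cells (KO), KO cells given wild-type Dppa2 and Dppa4 fused to GFP (KO+WT), and KO cells given SUMO-deficient Dppa2 and Dppa4 fused to GFP (KO+Mut). The add-back cells were transfected with lipofectamine and sorted for GFP, and the sources used here do not describe those steps for the parental or KO cells, so add-back and handling cannot be told apart in the comparisons with KO or parental cells. The sources used here do not say whether the KO line is 1 clone.

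Multi-copy gene families arise by repeated duplication, and young copies can stay so alike that a hybridisation probe cannot separate them. In the mouse many such families are transcribed in a short burst at the 2-cell stage of the embryo, together with MERVL, and in the rare cultured stem cells that resemble that stage. The DNA-binding partners Dppa2 and Dppa4 act upstream of Dux, an activator of this burst. SUMO is a small ubiquitin-like modifier joined to lysines of its target proteins.

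Promoters show how far the copies behind a shared probe set resemble each other outside the transcript. The sequences below are RefSeq promoters of assembly GRCm38.p6, 300 bases each (250 before to 50 after the gene start), written 5′ to 3′ on the strand of the gene. They belong to genes of 4 symbol groups that rose in both add-backs and were chosen after the values were seen, to show copies of unlike promoter similarity. Capitals mark TATAAA, the TATA box, and CCAAT, the CCAAT box of many promoters, on either strand; capitals run together where matches touch or overlap. Zscan4c lies at chr7:11005495-11005794 (plus strand) and Zscan4f at chr7:11397665-11397964 (plus strand). Gm13040 lies at chr4:143535704-143536003 and Pramel31 at chr4:144357714-144358013 (both plus strand). Pramel37 lies at chr5:94070496-94070795 (minus strand), Gm4301 at chr10:100335426-100335725 and Gm4340 at chr10:104193792-104194091 (both plus strand).
Zscan4c: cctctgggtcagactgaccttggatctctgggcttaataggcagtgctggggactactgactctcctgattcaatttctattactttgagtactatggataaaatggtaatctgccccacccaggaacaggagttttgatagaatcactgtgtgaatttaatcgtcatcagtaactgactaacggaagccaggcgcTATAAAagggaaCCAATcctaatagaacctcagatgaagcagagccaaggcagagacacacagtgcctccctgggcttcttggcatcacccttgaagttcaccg
Zscan4f: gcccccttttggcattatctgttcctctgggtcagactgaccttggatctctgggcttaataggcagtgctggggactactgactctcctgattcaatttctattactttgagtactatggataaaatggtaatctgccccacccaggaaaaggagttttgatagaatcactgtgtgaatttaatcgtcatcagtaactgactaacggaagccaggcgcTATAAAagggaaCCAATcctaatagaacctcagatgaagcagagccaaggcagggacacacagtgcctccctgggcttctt
Gm13040: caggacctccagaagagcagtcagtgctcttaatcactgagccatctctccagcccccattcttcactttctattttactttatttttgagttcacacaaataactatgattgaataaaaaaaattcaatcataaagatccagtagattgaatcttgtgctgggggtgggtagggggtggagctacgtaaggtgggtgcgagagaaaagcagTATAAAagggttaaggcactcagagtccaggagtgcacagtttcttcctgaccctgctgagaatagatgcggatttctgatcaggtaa
Pramel31: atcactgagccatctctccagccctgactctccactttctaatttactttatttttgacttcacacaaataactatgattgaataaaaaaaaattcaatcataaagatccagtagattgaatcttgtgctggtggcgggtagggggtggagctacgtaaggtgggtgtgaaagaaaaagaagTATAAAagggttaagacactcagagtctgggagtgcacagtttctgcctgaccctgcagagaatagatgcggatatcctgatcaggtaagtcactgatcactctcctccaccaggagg
Pramel37: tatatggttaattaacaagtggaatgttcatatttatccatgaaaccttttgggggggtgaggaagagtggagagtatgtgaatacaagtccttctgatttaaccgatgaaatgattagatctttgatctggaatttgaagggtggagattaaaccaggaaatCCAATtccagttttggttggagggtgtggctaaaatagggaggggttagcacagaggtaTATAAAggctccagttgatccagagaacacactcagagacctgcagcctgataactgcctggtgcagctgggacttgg
Gm4301: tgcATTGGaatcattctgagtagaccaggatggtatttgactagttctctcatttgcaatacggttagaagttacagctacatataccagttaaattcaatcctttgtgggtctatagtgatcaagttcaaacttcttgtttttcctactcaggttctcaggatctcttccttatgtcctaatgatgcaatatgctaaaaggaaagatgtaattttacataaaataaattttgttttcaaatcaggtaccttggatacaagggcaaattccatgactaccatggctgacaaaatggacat
Gm4340: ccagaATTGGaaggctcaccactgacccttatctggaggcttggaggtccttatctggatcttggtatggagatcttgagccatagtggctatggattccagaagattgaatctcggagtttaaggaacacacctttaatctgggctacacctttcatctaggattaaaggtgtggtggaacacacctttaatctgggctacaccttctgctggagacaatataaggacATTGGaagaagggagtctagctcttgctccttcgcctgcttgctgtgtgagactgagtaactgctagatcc

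The promoter windows of genes that share a probe set were not always alike. Identity was counted over the whole aligned windows, with gaps at the ends as differences, so a shift of the annotated start lowers it. The printed Zscan4c and Zscan4f windows are shifted against each other, and their value understates how alike the overlapping part is. The Zscan4c and Zscan4f promoters were 85.1% identical after alignment, Pramel37 and Pramel39 98.0%, Tdpoz5 and Tdpoz7 99.7%, and Gm13040 and Pramel31 75.6%. Gm4301 and Gm4340 were 46.2% identical and Sp110 and A530040E14Rik 45.0%, close to the median of 44.9% over 270 pairs of consecutive entries among every 100th promoter of the table. Over 120 pairs of genes within the shared probe sets that rose in KO+Mut against KO, the median identity was 80.7%, and over 2963 pairs within the other shared probe sets it was 81.3%. Of 11 patterns searched on both strands, chosen after the values were seen, 6 are reported. TATAAA was found in the promoters of 4234 of 27025 genes (15.7%), of 19 of 62 genes in the shared probe sets higher in KO+Mut (30.6%) and of 267 of 1757 genes in the other shared probe sets (15.2%). CCAAT was found in 41.1%, 64.5% and 46.8% of these promoters, TATATA, which shares letters with some TATAAA matches, in 6.66%, 22.6% and 6.26%, and GGGCGG, the GC box, in 38.2%, 9.68% and 43.1%. CACGTG was found in 8.09%, 1.61% and 7.80% and TGCACAC in 5.02%, 0.0% and 3.19%. Near copies hold the same letters, so the 62 promoters are not independent, and these shares were not tested. A match is a stretch of letters, and binding was not measured.

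The 1814 shared probe sets carried 2726 symbols in 1286 distinct lists, and linking probe sets that have a symbol in common gave 994 symbol groups. Of them 1140 had 2 symbols, 442 had 3 to 5 and 232 had 6 or more, up to 20. Many were near-duplicates: 297 (16.4%) had values identical to another shared probe set on every array, against 107 (0.455%) of the 23521 probe sets with 1 symbol, which left 1622 distinct value profiles. Probe sets with 1 profile are 1 measurement and were counted as such wherever profiles are given. The median log2 signal was 4.31 for shared probe sets and 4.32 for those with 1 symbol, and the median SD within groups was 0.203 and 0.200. Levels of 365 shared probe sets (20.1%) lay below the lower quartile of all probe sets (2.42), where signal and background cannot be separated because no detection calls were used.

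Array medians lay between 3.73 and 3.88, and the number of arrays limited precision, with a median 95% half-width of 0.397 for a difference between groups. Replicates are labelled biological without any word on separate cultures, so a p-value here measures only how these arrays spread, which may be technical. Dppa2 differed by -1.29 and Dppa4 by -0.84 between KO and parental cells (limma adjusted p = 0.0847 and 0.218 over all probe sets). Whether these probes lie inside the deleted part is unknown here, so they do not check the knockout. Both were higher in the add-backs than in KO cells, Dppa2 by 2.60 and 2.72 and Dppa4 by 2.77 and 2.92 with KO+WT and KO+Mut. The mean log2 signal of 8 pluripotency markers was 8.13 in parental, 8.28 in KO, 8.15 in KO+WT and 8.10 in KO+Mut cells, that of 8 fibroblast markers 3.60 to 3.86 and that of 8 endoderm markers 5.93 to 6.68. None of these markers passed the test between KO and another group, and 1 endoderm marker was lower in each add-back than in parental cells.

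Differences were tested with limma on log2 values, and a probe set was called at a Benjamini-Hochberg adjusted p under 0.05 over all 41345 probe sets, with no fold limit. Between KO and parental cells 0 shared probe sets were higher (0.00967% of all probe sets were; 56 shared probe sets at an unadjusted p under 0.05) and 5 were lower, 0.276% of the shared probe sets against 0.0653% of all. In KO+WT against KO, 45 were higher (2.48%, against 0.493% of all) and 0 lower (0.0484% of all; 68 unadjusted). In KO+Mut against KO, 71 were higher (3.91%, against 0.805% of all) and 0 lower (0.0701% of all; 57 unadjusted). Shared probe sets were thus 4.39% of the table and made up 22.1% and 21.3% of the rises in the add-backs. The 45 rises came from 38 profiles in 12 symbol groups and the 71 from 57 profiles in 17 symbol groups, so most of the rises repeat within a family. Median differences were 0.019 and 0.020 for the shared probe sets and -0.0050 and -0.0067 for all probe sets, so the rises were a small minority.

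**Figure D1:**
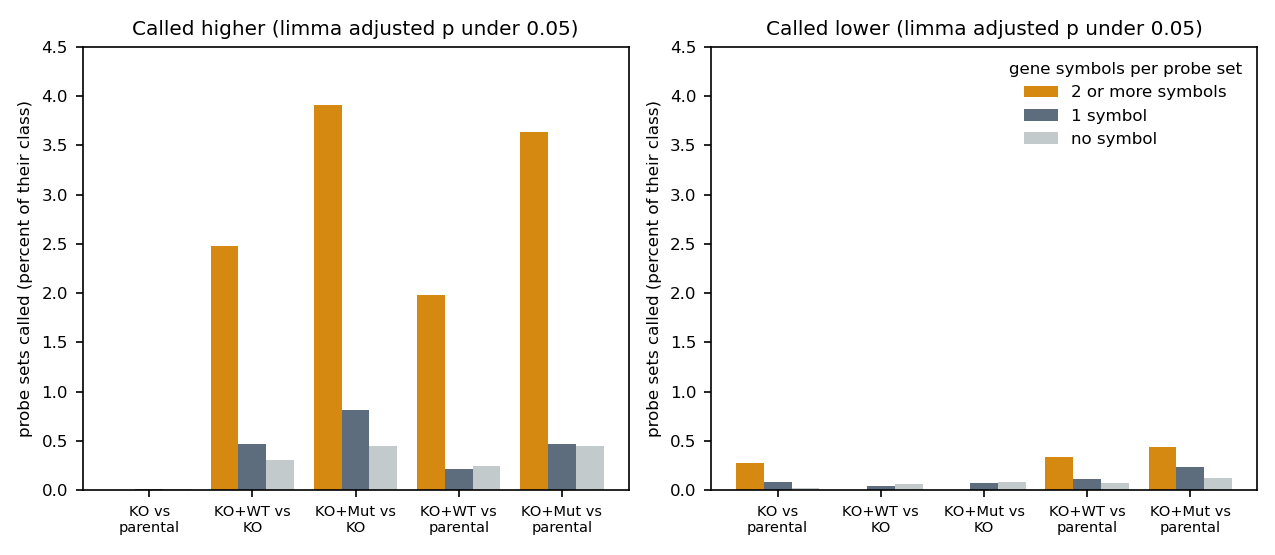
Percent of probe sets called higher (left) or lower (right) in 5 comparisons, by the number of gene symbols per probe set; the comparisons of the add-backs with KO share the KO arrays, and those with parental cells share the parental arrays. The bars of probe sets with 2 or more symbols reach 2.48% and 3.91% for the add-backs against KO, where those with 1 symbol reach 0.468% and 0.808%.

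The share called grew with the number of symbols. In KO+Mut against KO it was 0.789% of probe sets with 2 symbols, 6.11% of those with 3 to 5 and 15.1% of those with 6 or more, and in KO+WT against KO 0.526%, 3.17% and 10.8%. Where the genes of a probe set lie on 1 chromosome with a gap over 100 kb between them, 63 of 605 (10.4%) were higher in KO+Mut. Of 378 with all gaps within 100 kb 7 were higher, of 563 with overlapping genes 1, and of 200 with genes on different chromosomes 0. Distances came from the RefSeq gene table of GRCm38.p6 and the 100 kb limit was set after the values were seen. These shares count near-duplicates separately and were not tested.

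The comparison of KO with parental cells asks which transcripts need Dppa2 and Dppa4. The 5 shared probe sets that fell came from 3 symbol groups: Zscan4, whose zinc-finger proteins mark 2-cell embryos and act on telomeres; Zfy1/Zfy2, zinc-finger genes of the Y chromosome; and Dmrtc1c1/Dmrtc1c2, X-linked relatives of the DMRT transcription factors. The first Zscan4 probe set, which lists Zscan4a, Zscan4c, Zscan4f, Zscan4b, Zscan4d and Zscan4e in that order, read 6.20, 7.45 and 7.04 in parental and 3.15, 2.31 and 2.78 in KO cells. Every KO array lay below every parental array, with a wide gap between the groups (difference -4.15 on the log2 scale, SE 0.43, limma adjusted p = 0.00441). The second, with the same genes listed from Zscan4f, read 5.39, 6.67 and 6.25 against 2.71, 2.47 and 3.09 and fell by 3.35 (SE 0.47, limma adjusted p = 0.031). In these bulk samples fewer cells of a type and less RNA per cell cannot be told apart.

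Zfy1/Zfy2 read 4.03, 3.73 and 3.55 in parental cells, 1.95, 2.38 and 2.23 in KO, 1.92, 1.76 and 1.88 in KO+WT, then 1.70, 1.85 and 1.74 in KO+Mut. The groups did not overlap between parental and KO cells (difference -1.59, SE 0.15, limma adjusted p = 0.00307), and the add-backs lay below parental cells too (-1.92 and -2.01). All KO and add-back values lay below the lower quartile of all probe sets (2.42), where signal and background cannot be separated. The own probe set of Zfy2 differed by -0.59 between KO and parental cells (limma adjusted p = 0.939). It differed from KO by 0.47 in KO+WT and 0.25 in KO+Mut, which did not pass. Of 5 Y-linked genes with a probe set of their own, a list drawn up after the values were seen, 1 passed as lower in KO than in parental cells (Uba1y, a ubiquitin-activating enzyme gene). Their mean was 5.26 in parental, 4.67 in KO, 4.55 in KO+WT and 4.68 in KO+Mut cells. The median difference between KO and parental cells was only -0.12, and 2 of the 5 genes were higher in KO. The part of the Y chromosome in the Zfy1/Zfy2 result was not tested. Dmrtc1c1/Dmrtc1c2 read 6.02, 5.78 and 5.55 in parental and 4.81, 4.53 and 4.44 in KO cells in 2 probe sets of 1 profile, a difference of -1.19 (SE 0.17, limma adjusted p = 0.0368). The number of shared probe sets lower in KO was 3 without parental replicate 1 and 2 without any other single array, in place of 5. Leaving out single arrays kept the first Zscan4 probe set and Zfy1/Zfy2 in all 6 fits. The second Zscan4 probe set stayed below the threshold only without parental replicate 1, with adjusted p from 0.112 (without KO replicate 3) to 0.178 (without parental replicate 2) in the other fits. Dmrtc1c1/Dmrtc1c2 passed in none, with adjusted p from 0.0733 (without parental replicate 3) to 0.178 (without parental replicate 2).

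**Figure D2:**
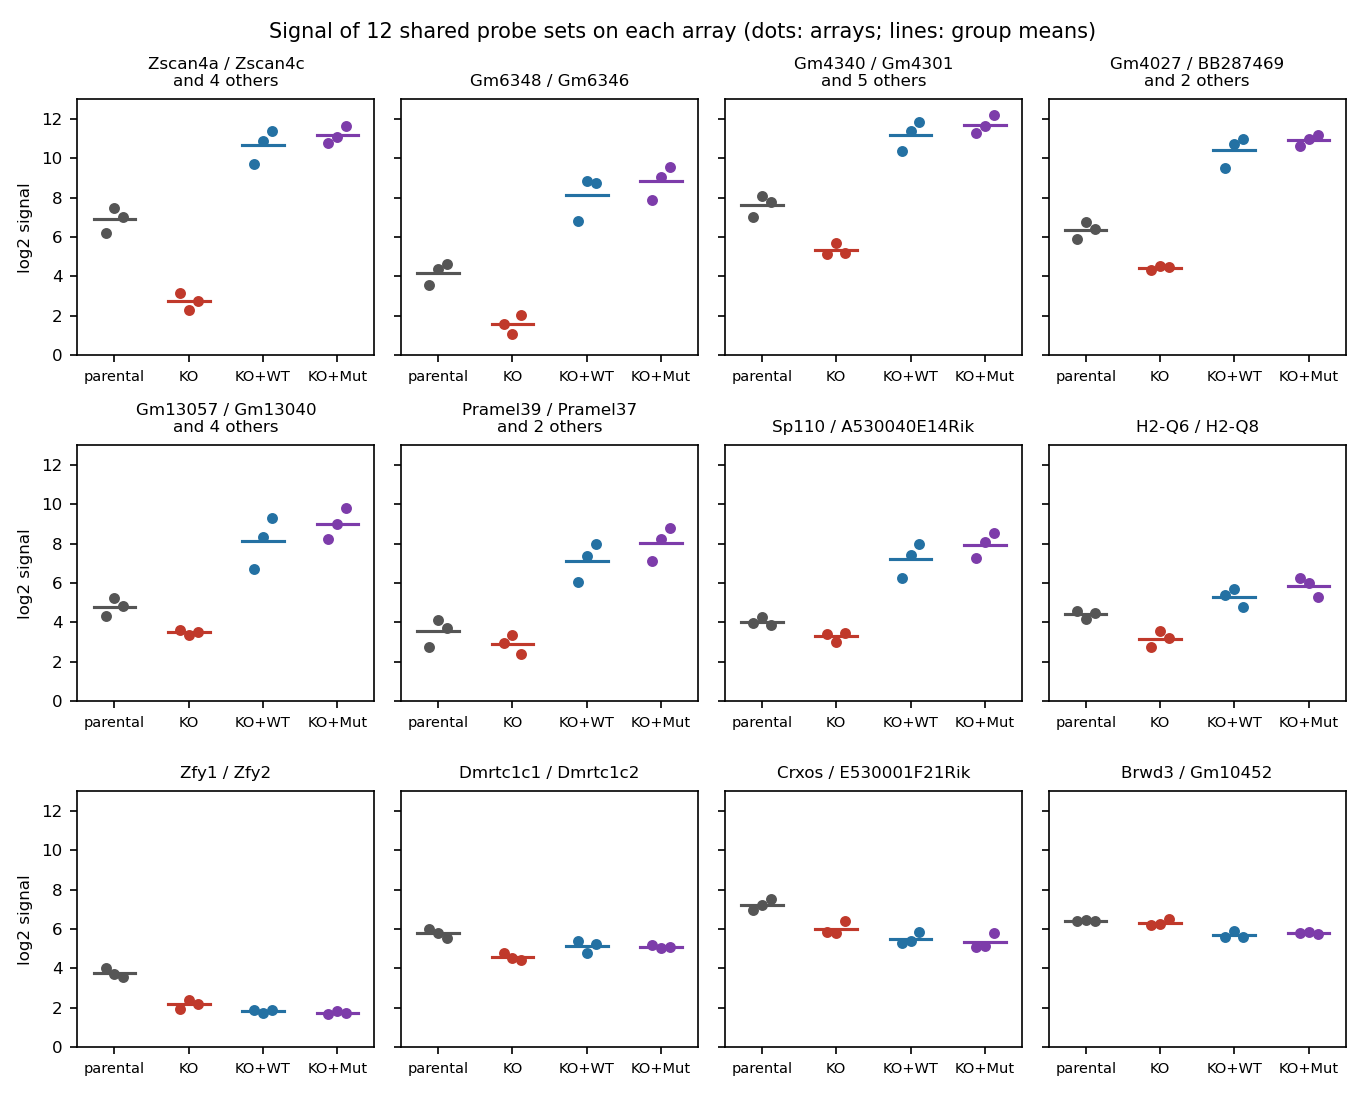
Log2 signal of 12 shared probe sets on each of the 12 arrays (dots) with group means (lines); titles give the first symbols and the number of others. The first Zscan4 probe set lies at 2.31 to 3.15 in KO and at 9.71 to 11.62 in the add-backs, and Zfy1/Zfy2 stays between 1.70 and 2.38 in all 3 groups that carry the knockout.

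The add-backs were compared with KO to ask which transcripts return with the wild-type or the SUMO-deficient proteins; both comparisons use the same 3 KO arrays. Zscan4 rose most. The first Zscan4 probe set read 9.71, 10.89 and 11.38 in KO+WT, then 10.76, 11.09 and 11.62 in KO+Mut, against 3.15, 2.31 and 2.78 in KO. All 6 add-back arrays lay above all parental arrays, and the differences from KO were 7.91 and 8.41 (SE 0.43, limma adjusted p = 1.59e-05 and 6.45e-06). For the second the differences were 7.14 and 7.85.

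A group of 11 symbols, mostly predicted genes with Pramel40 among them, gave 6 probe sets that rose in both comparisons. Its probe set Gm6348/Gm6346 read 3.55, 4.36 and 4.66 in parental, 1.59, 1.07 and 2.05 in KO, 6.79, 8.85 and 8.74 in KO+WT, then 7.90, 9.06 and 9.55 in KO+Mut cells. KO values were the lowest and add-back values the highest, with no overlap between the 3 levels. Differences from KO were 6.56 and 7.27 (SE 0.57, limma adjusted p = 0.000145 and 5.2e-05). The difference of -2.62 between KO and parental cells did not pass (limma adjusted p = 0.214). All KO values of Gm6348/Gm6346 lay below the lower quartile of all probe sets (2.42), where signal and background cannot be separated. The other 5 list all 11 symbols and differed from KO by 5.94 to 6.22 in KO+WT and by 6.58 to 6.93 in KO+Mut. They were lower in KO than in parental cells by 1.73 to 2.22, which did not pass the test.

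Predicted genes Gm4301 to Gm4340 formed a group of 7 symbols with 11 probe sets, but only 5 value profiles. The probe set Gm4340/Gm4301/Gm4312 read 5.74, 7.05 and 6.34 in parental, 3.75, 4.25 and 4.19 in KO, 9.36, 10.65 and 11.44 in KO+WT, then 10.66, 11.28 and 11.81 in KO+Mut cells. It differed from KO by 6.42 and 7.19 (SE 0.49, limma adjusted p = 5.32e-05 and 1.61e-05). All 11 rose in both comparisons, over a range of 3.25 to 6.42 in KO+WT and 3.89 to 7.19 in KO+Mut. The smallest rise belonged to a probe set of 6 of these symbols, and its call in KO+WT was lost without KO replicates 2 or 3 or KO+WT replicates 2 or 3 (adjusted p = 0.105, 0.111, 0.0789 and 0.0782).

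BB287469, Gm2022, Gm4027, Gm5039 and Gm5662, genes that resemble the translation initiation factor eIF1A, were read by 3 shared probe sets. Gm4027/BB287469/Gm5039/Gm2022 read 5.91, 6.78 and 6.39 in parental, 4.33, 4.55 and 4.46 in KO, 9.51, 10.72 and 10.98 in KO+WT, then 10.60, 10.97 and 11.18 in KO+Mut cells, and rose by 5.96 and 6.47 from KO (SE 0.34, limma adjusted p = 1.59e-05 and 6.45e-06). Gm5039/Gm5662 read 1.73, 3.62 and 1.66 in parental and 3.67, 3.02 and 2.24 in KO cells, which overlap, and 5.88, 7.44 and 7.80 in KO+WT, then 7.19, 7.71 and 8.15 in KO+Mut. It rose by 4.07 and 4.71, but the first of these calls was lost without KO replicate 2 or 3 or KO+WT replicate 2 or 3 (adjusted p = 0.0519, 0.063, 0.0593 and 0.0553). BB287469/Gm4027 rose by 3.29 in KO+Mut (adjusted p = 0.00969, and 0.0531 and 0.0505 without KO replicate 2 and KO+Mut replicate 2) and differed by 2.08 in KO+WT (adjusted p = 0.14).

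Pramel genes encode leucine-rich repeat proteins related to the tumour antigen PRAME and are transcribed in germ cells and early embryos. Of 23 shared probe sets with at least 2 Pramel symbols, 14 rose in KO+WT and 17 in KO+Mut, with medians of 3.29 and 4.13. Of the calls in KO+WT, 5 were lost without KO replicate 3 and the same number without KO+WT replicate 2 (adjusted p up to 0.0765). The group mean was 3.31 ± 0.21 in parental, 2.99 ± 0.08 in KO, 5.56 ± 0.85 in KO+WT and 6.18 ± 0.58 in KO+Mut cells (SD, n = 3). The 6-symbol probe set Gm13057/Gm13040/Gm13043/Pramel31/Pramel20/Pramel16 read 4.33, 5.24 and 4.81 in parental, 3.61, 3.38 and 3.53 in KO, 6.70, 8.36 and 9.28 in KO+WT, then 8.23, 9.00 and 9.79 in KO+Mut cells. It rose by 4.61 and 5.50 (SE 0.56, limma adjusted p = 0.00266 and 0.000481), and the other 2 probe sets with these symbols rose by 4.31 and 4.38 and by 5.17 and 5.27.

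Another Pramel group, Pramel37, Pramel39, Pramel50 and BC080696, had 11 probe sets in 10 profiles. All 11 rose in both comparisons, by 2.78 to 4.23 in KO+WT and by 3.62 to 5.14 in KO+Mut. The KO+Mut calls were all kept without single arrays, while in KO+WT 5 of the 11 were lost without KO replicate 3 or KO+WT replicate 2, 2 without KO replicate 2, and 1 without KO replicate 1 or KO+WT replicate 3 (adjusted p from 0.0520 to 0.0765). Its highest riser, Pramel39/Pramel37/Pramel50/BC080696, read 2.78, 4.13 and 3.72 in parental, 2.96, 3.35 and 2.38 in KO, 6.04, 7.39 and 7.96 in KO+WT, then 7.12, 8.22 and 8.78 in KO+Mut cells. KO and parental arrays overlapped here, unlike in Zscan4. Pramel42 and 16 further symbols gave 12 probe sets, of which 0 passed in KO+WT and 10 in KO+Mut, with differences of 0.03 to 1.61 and 0.09 to 2.23. All 10 calls were lost without any 1 of KO replicates 1, 2 and 3 or KO+Mut replicates 2 and 3, and 1 without KO+Mut replicate 1 (adjusted p from 0.0563 to 0.192). That a probe set passed in 1 of these comparisons does not show that the add-backs differ, which is tested below.

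The remaining rises came from smaller groups. Gm4567/Gm10662/Gm5891 had 6 probe sets in 4 profiles, of which 0 rose in KO+WT and 4 in KO+Mut. Their differences from KO were 0.85 to 1.31 and 1.00 to 1.76 (lowest limma adjusted p = 0.109 and 0.0179). C130026I21Rik/Sp140 with 3 further symbols rose by 1.42 in KO+Mut (limma adjusted p = 0.0039) and differed by 0.70 in KO+WT, which did not pass. Fits without single arrays are not given for these rises, so their calls are not shown to hold when an array is left out. Sp110/A530040E14Rik, of which Sp110 encodes a nuclear body protein, read 3.43, 3.03 and 3.48 in KO, 6.26, 7.43 and 7.97 in KO+WT, then 7.27, 8.06 and 8.52 in KO+Mut cells, and rose by 3.90 and 4.64 (SE 0.40, limma adjusted p = 0.000635 and 0.00012). Gm428, Gm13871 and 7 other predicted genes had 8 probe sets, 4 of which rose in KO+WT and 8 in KO+Mut (2.86 to 4.01). The 4 calls in KO+WT were lost without any single array other than KO+WT replicate 1 (adjusted p from 0.0639 to 0.157). In KO+Mut 4 of the 8 were lost without KO replicate 3, and 1 without KO replicate 2 or KO+Mut replicates 2 or 3 (adjusted p from 0.0566 to 0.0856). Of Tdpoz genes, which encode TRAF- and POZ-domain proteins, Tdpoz9/Tdpoz1 read 2.03, 2.12 and 2.22 in KO, 4.00, 5.32 and 5.45 in KO+WT, then 4.60, 5.16 and 5.63 in KO+Mut. It rose by 2.80 and 3.01 (SE 0.35, limma adjusted p = 0.00301 and 0.00116), from KO values that all lay below the lower quartile of all probe sets (2.42). Tdpoz5/Tdpoz7, 2 probe sets of 1 profile, differed by 1.85 in KO+WT (adjusted p = 0.131) and rose by 2.57 in KO+Mut, a call lost without KO replicates 2 or 3 or KO+Mut replicates 2 or 3 (adjusted p = 0.0854, 0.0782, 0.0969 and 0.0834).

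Speer4 genes, named for spermatogenesis-associated glutamate-rich proteins, had 7 probe sets in 1 symbol group, of which 2 rose in KO+WT and 5 in KO+Mut. Speer4e/Speer4cos/Gm17019 read 4.33, 3.86 and 3.57 in KO, 5.13, 6.12 and 6.62 in KO+WT, then 5.81, 7.03 and 6.91 in KO+Mut, with differences of 2.04 and 2.66 (SE 0.39, limma adjusted p = 0.0484 and 0.00659). Both calls of the group in KO+WT were kept without KO+WT replicate 1 and lost without any other single array (adjusted p from 0.0672 to 0.201, the highest for Speer4e/Speer4cos/Gm17019 without KO replicate 3). In KO+Mut 2 of the 5 were lost without KO replicate 3 or KO+Mut replicates 2 or 3 (adjusted p from 0.0534 to 0.0680). Among class I histocompatibility genes, H2-Q6/H2-Q8 read 2.77, 3.55 and 3.24 in KO, 5.40, 5.69 and 4.76 in KO+WT, then 6.24, 5.99 and 5.27 in KO+Mut, and rose by 2.10 and 2.65 (SE 0.30, limma adjusted p = 0.00853 and 0.00106). It was 1 of 7 class I probe sets, and the other 6 did not pass. Of 55 histone probe sets 1 rose, H2bc4/H2bc8/H2bc6 in KO+Mut (1.38, SE 0.22, limma adjusted p = 0.0114), and that call was lost without KO replicates 1 or 2 or KO+Mut replicate 2 (adjusted p = 0.0517, 0.0503 and 0.0653). Rasal3/A530088E08Rik, of which Rasal3 encodes a Ras GTPase-activating protein, rose by 0.72 and 0.81, and the first call was kept only without KO+WT replicate 1 (adjusted p up to 0.0862, without KO replicate 1).

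**Figure D3:**
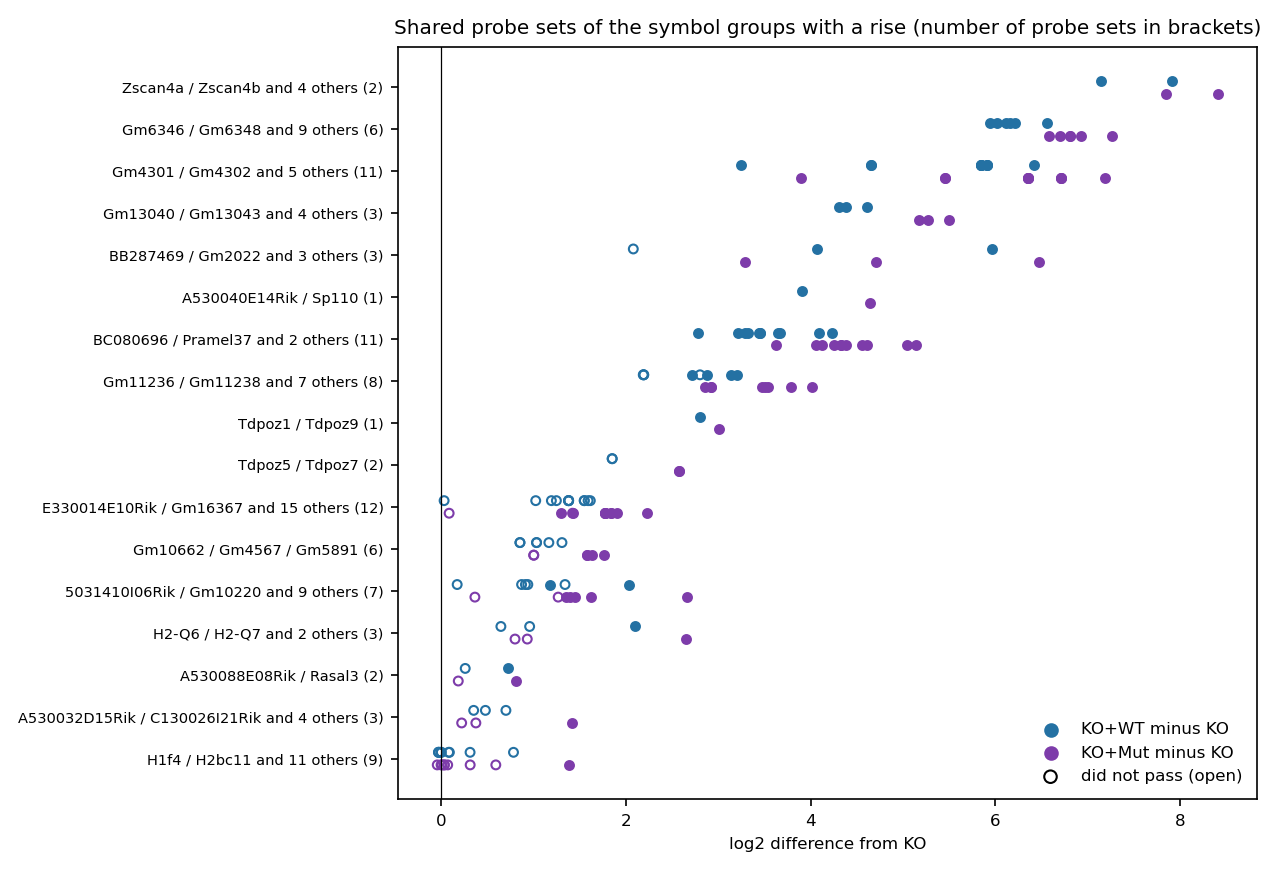
Log2 difference from KO of each shared probe set in the 17 symbol groups with a rise in KO+Mut, for KO+WT (blue) and KO+Mut (purple); filled dots passed the test, open dots did not, and identical values overlie each other. Zscan4 lies at 7.14 to 8.41, and in the histone group 1 of 9 probe sets passed.

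Within the add-back groups the arrays were not alike. KO+WT replicate 1 was the lowest of its group in 44 of the 45 shared probe sets that rose in KO+WT, and KO+Mut replicate 1 in 68 of the 71 that rose in KO+Mut, although these members share sequences and are not independent. Without KO+WT replicate 1, 72 shared probe sets were higher in KO+WT than in KO in place of 45. Against 0 falls in KO+Mut from all arrays, 1 shared probe set was lower without KO replicate 3 and 2 without KO+Mut replicate 3. Of the 45 calls 31 were kept in all 6 fits that leave out an array, and of the 71 calls 47.

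For some genes the shared value can be set beside a probe set of their own, which lists only that symbol. Of the 127 symbols of called probe sets, 42 have one. Such a probe set may still read other copies, because cross-hybridisation was not corrected. Sp110, Gm2022 and Gm4340 passed on both kinds of probe set, with own differences between KO+Mut and KO of 5.21, 6.59 and 5.94 against shared values of 4.64, of 6.47 and of 6.36 to 7.19. The own probe sets of Zscan4 genes differed among themselves. Between KO+Mut and KO that of Zscan4e differed by 9.04, of Zscan4b by 7.81 and of Zscan4c by 6.42. That of Zscan4d differed by 5.75 and of Zscan4a by 4.29, against 7.85 and 8.41 for the shared ones. In KO+WT against KO that of Zscan4a (3.19) did not pass (limma adjusted p = 0.0707), while the others did. Between KO and parental cells, where the shared ones fell, only the own probe set of Zscan4e passed (-4.41, limma adjusted p = 0.006). Those of Zscan4b (-2.82), Zscan4c (-1.81), Zscan4d (-1.15) and Zscan4a (-0.17) did not pass.

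Some other genes gave a smaller difference on their own probe sets than on the shared ones, and some a larger one. Tdpoz1 differed by 0.16 in KO+WT and -0.08 in KO+Mut against 2.80 and 3.01 for Tdpoz9/Tdpoz1, and Tdpoz9 by 1.16 and 1.53. Speer4e differed by 0.05 and 0.00 against 0.87 to 2.66 on its shared probe sets, and Gm11487 by 0.22 and 0.10 against 2.19 to 4.01. Pramel31 differed by 4.77 and 5.62, above the 4.31 to 4.61 and 5.17 to 5.50 of its shared probe sets. Pramel20 (1.34 and 2.71) and Pramel16 (0.86 and 1.79), which are listed on the same shared probe sets, did not pass. Gm5662 differed from KO by 6.23 and 6.77 on its own probe set, against 4.07 and 4.71 on Gm5039/Gm5662. Between KO and parental cells it differed by -2.20 on its own probe set and by 0.64 on Gm5039/Gm5662, neither of which passed. Differences between probe sets of unlike probes depend on how each binds.

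**Figure D4:**
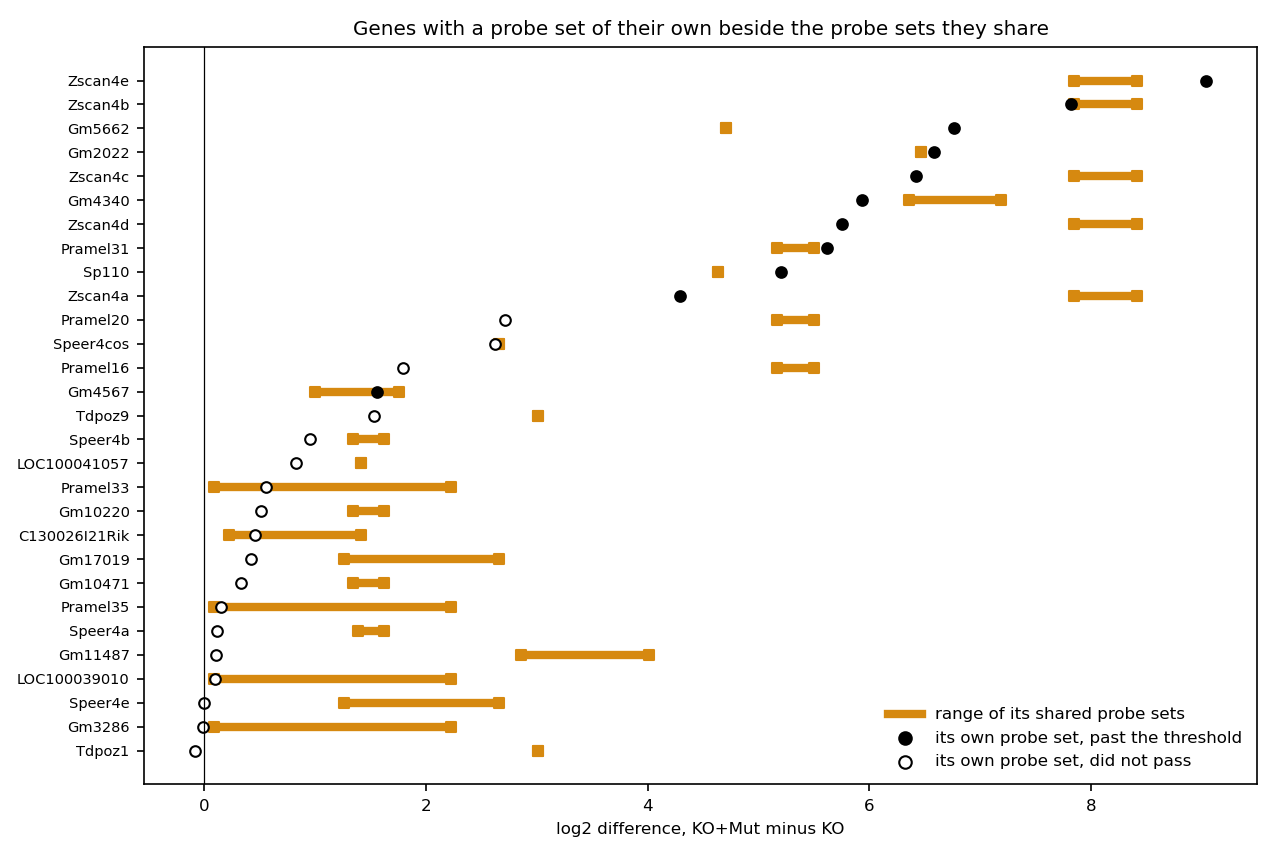
Log2 difference between KO+Mut and KO for 29 genes in shared probe sets that rose, on the gene's own probe set (dots; filled where it passed) and over its shared probe sets (orange, squares at the lowest and highest). Gm2022 (6.59) lies beside its shared value (6.47), whereas Tdpoz1, Speer4e and Gm11487 lie near 0.

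A list of 48 genes of the 2-cell stage holds 37 with a probe set of their own, and 11 more can be read here only through shared ones or not at all. Of the 37, 3 fell in KO, 21 rose in KO+WT and 25 in KO+Mut, with medians of -0.65, 3.28 and 4.25. The list was drawn up with results of these arrays known and is not independent evidence.

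Between the add-backs, 0 shared probe sets passed in either direction, as did 0 of all probe sets (0.0%). At an unadjusted p under 0.05, 20 shared probe sets were higher and 15 lower in KO+Mut, 1.93% of them against 3.52% of all probe sets. The first Zscan4 probe set differed by 0.50 (SE 0.43), Gm6348/Gm6346 by 0.71 (SE 0.57), Sp110/A530040E14Rik by 0.73 (SE 0.40) and Gm13057 with its 5 partners by 0.89 (SE 0.56). In each of these 4 probe sets KO+Mut was higher in all 3 pairs of same-numbered arrays, and with the replicate block their limma adjusted p was 0.938, 0.917, 0.912 and 0.912. All 71 probe sets called against KO in either add-back read higher in KO+Mut than in KO+WT, by a median of 0.67 (range 0.09 to 1.21). They were chosen through these same arrays, so that direction is not independent evidence. The 3 of smallest p were Ergic2/Tmtc1/4732416N19Rik (0.74, SE 0.17), Mir5133/Glce (-0.41, SE 0.10) and C130026I21Rik/Sp140 with 3 further symbols (0.71, SE 0.19). Ergic2/Tmtc1/4732416N19Rik read 3.72, 4.42 and 3.94 in KO+WT, then 4.63, 4.77 and 4.89 in KO+Mut. The groups did not overlap in that probe set, and its limma adjusted p was 1.00.

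Compared with parental cells, 36 shared probe sets were higher in KO+WT (1.98%, against 0.305% of all) and 66 in KO+Mut (3.64%, against 0.6% of all), and 6 and 8 were lower (0.331% and 0.441%, against 0.109% and 0.196% of all). The 36 rises became 60 without KO+WT replicate 1, 21 without KO+WT replicate 2, KO+WT replicate 3 or parental replicate 1, and 22 without parental replicate 2 or 3. The 66 became 38 without KO+Mut replicate 2 and 39, 43 and 40 without parental replicates 1, 2 and 3. The 6 falls became 2 without KO+WT replicate 2 or 3 or parental replicate 1 and 1 without parental replicate 2 or 3; the 8 became 4, 2 and 3 without KO+Mut replicates 1, 2 and 3 and 3, 2 and 2 without parental replicates 1, 2 and 3. In KO+WT and KO+Mut alike, the 2 Zscan4 probe sets and the 6 of the group with Gm6348 were above the parental level. Of the 11 probe sets of the Gm4301 group 10 were higher in KO+WT and 11 in KO+Mut, and of the 3 eIF1A-like ones 2 and 3. Leaving out single arrays ended 1 of these calls of the Gm6348 group in KO+WT (without KO+WT replicates 2 or 3 or parental replicates 1 or 2, adjusted p up to 0.0643) and 1 of the Gm4301 group in KO+Mut (without KO+Mut replicates 2 or 3 or parental replicates 1 or 3, adjusted p up to 0.104). Among these, the first Zscan4 probe set was higher by 3.76 and 4.26, Gm6348/Gm6346 by 3.94 and 4.65, Gm4340/Gm4301/Gm4312 by 4.11 and 4.88, and Gm4027/BB287469/Gm5039/Gm2022 by 4.04 and 4.55. Gm5039/Gm5662 was 4.71 and 5.35 higher than in parental cells (SE 0.61, limma adjusted p = 0.00587 and 0.00156). Among the smaller rises were Hspa1a/Hspa1b, heat shock protein 70 genes (0.78 in KO+Mut, limma adjusted p = 0.0246), and Duxbl2/Duxbl1/Duxbl3, double homeobox genes related to Dux (1.43 in KO+Mut, limma adjusted p = 0.0451). Both calls were lost without single arrays. The first was lost without parental replicates 1 or 2 or KO+Mut replicates 2 or 3 (adjusted p = 0.115, 0.106, 0.104 and 0.105). The second was lost in all 6 fits (largest adjusted p = 0.191, without parental replicate 2). The parental mean of Hspa1a/Hspa1b was 2.33, below the lower quartile of all probe sets (2.42). In KO+Mut against KO the own probe set of Hspa1b passed (1.40, limma adjusted p = 0.00778). That of Hspa1a (1.15) and the shared one (0.60) did not pass.

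Falls below the parental level were smaller. Crxos/E530001F21Rik, of which Crxos is named as the opposite-strand gene of the homeobox gene Crx, read 6.97, 7.20 and 7.51 in parental, 5.84, 5.78 and 6.41 in KO, 5.27, 5.39 and 5.85 in KO+WT, then 5.08, 5.12 and 5.78 in KO+Mut cells. It was 1.73 and 1.90 lower in the add-backs (differences -1.73 and -1.90, SE 0.25, limma adjusted p = 0.0112 and 0.00375), and -1.22 in KO did not pass. Its call in KO+WT was lost without parental replicates 2 or 3 or KO+WT replicate 2 (adjusted p = 0.0542, 0.063 and 0.06). Gm5128/Gm7903/Pramel3/AV320801/Gm15023, 3 probe sets of 2 profiles, differed by -0.97 and -0.89 in KO+WT and by -0.93 and -0.99 in KO+Mut. Their limma adjusted p was 0.0380 to 0.0443 in KO+WT and 0.0162 to 0.0313 in KO+Mut. Without parental replicate 2 or 3 only 1 shared probe set was lower in KO+WT and 2 in KO+Mut, so these 3 were not all kept. Brwd3/Gm10452, of which Brwd3 encodes a bromodomain protein, read 6.42, 6.45 and 6.41 in parental, 6.23, 6.25 and 6.50 in KO, 5.60, 5.91 and 5.62 in KO+WT, then 5.78, 5.85 and 5.77 in KO+Mut cells, differences of -0.72 and -0.63 from parental cells (SE 0.12, limma adjusted p = 0.0309 and 0.042). Its adjusted p rose as far as 0.142 and 0.164 without parental replicate 2. Srp54a/Srp54b/Srp54c, genes of the signal recognition particle, fell by 0.82 and 0.80 in KO+Mut in 2 probe sets, and only 1 of 6 fits that left out an array kept each call.

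Most other families held no called member. Of 63 microRNA, 60 vomeronasal receptor, 21 olfactory receptor, 20 zinc finger, 18 chemokine (Ccl), 18 ribosomal protein, 18 small nucleolar RNA and 13 other small RNA probe sets, 0 passed in any of the 6 comparisons. In many of them the level was low: 34 of the 60 vomeronasal and 15 of the 21 olfactory probe sets lay below the lower quartile of all probe sets, where a change may not be seen. Ribosomal protein probe sets, at a mean of 8.36 in parental and 8.34 in KO cells, differed between KO+Mut and KO by -0.15 to 0.15. Small nucleolar RNA probe sets varied between arrays of a group by an SD of 0.73 to 1.01, and their 18 probe sets held only 3 profiles. A probe set that did not pass is not shown to be unchanged.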

How the data were processed

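Total RNA (100 ng per sample) of 12 mouse embryonic stem cell samples was hybridised to Affymetrix arrays with the WT Plus kit, per the labels' protocols. The authors deposited 1 log2 signal for each probe set on every array, made with the Transcriptome Analysis Console per the submitters' processing notes; its version, background correction, summarization and genome build were not given in the sources used here. The log2 scale was inferred from the spread of values. Any compression of low signals in that step carries into the differences. Cross-hybridisation between gene copies was not corrected, and a sum over copies cannot be split.

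Members were the probe sets with 2 or more symbols in GEO's platform annotation; 2640 of 2732 Entrez identifiers were found in RefSeq GRCm38.p6. Families were assigned where 2 or more symbols matched a name pattern. The members, families and gene lists were chosen with earlier results of these data known, and symbol groups, value profiles, the 100 kb limit and the 11 promoter patterns (5 longer ones are not reported here) were chosen after the values were seen.

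The lmFit and eBayes functions of limma 3.58.1 (R 4.3.3) fitted all 41345 probe sets on 12 arrays with 1 mean per group, two-sided, with Benjamini-Hochberg adjustment within each of 6 comparisons. Named probe sets were, per comparison, up to 10 rises and 10 falls of largest size that passed with groups apart (up to 5 where add-backs met parental cells), or the 3 of smallest p where fewer than 3 passed, and up to 4 per family with a call by the F test; other called groups were named after their values were seen. On simulated data of 41345 probe sets for KO+WT against KO, 51 of 100 changes of 1 and 89 of 100 changes of 2 (log2) were recovered, and 6 unchanged probe sets were called. The simulated noise was independent between probe sets and arrays, unlike these data, where near-duplicate probe sets share values. Promoters were aligned with Biopython 1.88; pandas 2.3.3 and matplotlib 3.10.9 under Python 3.11.15 gave the tables and plots.

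The titles number the replicates 1 to 3, with no word on their meaning. Deviations of same-numbered arrays correlated above 0.1 in every pair for KO+Mut against KO+WT (0.25, 0.17 and 0.33). The same held for KO+WT against parental cells (0.17, 0.10 and 0.21), and in both comparisons the numbers were taken to pair the arrays. In the other comparisons replicate 2 stayed between 0.05 and 0.09. The main fit did not use this pairing, and it gave the calls and p-values in the Results unless another fit is named there. With the replicate block, 46 shared probe sets were higher and 8 lower in KO+WT than in parental cells, in place of 36 and 6. Between the add-backs the block gave 0 in both directions, as did the main fit. Alternatives tried were a replicate block, median centring, a repeat of quantile normalization, omission of low signals, trend and robust variances, array weights, a 2-fold limit, fits of only the 6 arrays in a comparison, averaged symbol lists, probe sets with a symbol only, members without small RNAs, and leaving out each array.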

Additional observations from a re-analysis of the deposited data

How the results depend on the processing

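Of 237 calls of a shared probe set in a comparison, 142 were kept in every fit without 1 array, 119 in every alternative run, and 0 reversed; of 699 values of named probe sets that were not called, 99 passed in at least 1 alternative. Between KO+Mut and KO+WT the count was 0 in both directions under every alternative, the replicate block included. The cause of the changes below was not tested, except that averaging identical symbol lists leaves 1286 features in place of 1814 probe sets and the fits of 6 arrays hold fewer arrays. For KO against parental cells, 0 higher became 1 with trend and robust variances, 2 over probe sets with a symbol only and 1 with the replicate block. The 5 lower became 14 with array weights, 3 averaged, 14 with a symbol only, 2 from 6 arrays and 12 with the replicate block. For KO+WT against KO, 45 higher became 16 averaged and 24 from 6 arrays, and 0 lower became 1 with a symbol only and 1 without low signals. For KO+Mut against KO, 71 higher became 27 averaged, and 0 lower became 3 with array weights, 2 with median centring, 5 with a symbol only, 1 with quantile normalization, 3 with the replicate block and 1 without low signals. For KO+WT against parental cells, 36 higher became 14 averaged, 55 with a symbol only and 6 from 6 arrays, and 6 lower became 2 with the 2-fold limit and 1 from 6 arrays. For KO+Mut against parental cells, 66 higher became 27 averaged, and 8 lower became 2 with the 2-fold limit, 5 averaged, 5 from 6 arrays and 13 with the replicate block. With the replicate block the other counts higher were 51 and 84 against KO and 46 and 84 against parental cells. Without 1 array the counts ranged from 2 to 3 (lower, KO against parental cells), 31 to 72 (higher, KO+WT against KO), 50 to 74 and 0 to 2 (higher and lower, KO+Mut against KO), 21 to 60 and 1 to 7 (higher and lower, KO+WT against parental cells) and 38 to 71 and 2 to 4 (higher and lower, KO+Mut against parental cells). Signals near background limit what low families can show.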
